A study of Homo sapiens with 4 samples.

Results

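The genes described here are 8 CHD (chromodomain helicase DNA-binding) genes, CHD1, CHD2, CHD3, CHD4, CHD6, CHD7, CHD8 and CHD9, together with ATRX. They were taken by gene symbol, through the Ensembl identifier of each row, from the 63677 genes counted, and all 9 were among the 15116 genes with enough reads to be tested. RNA was sequenced from HCT116, a human colorectal cancer cell line, transfected for 48 h (as the sample labels give it) with an antisense oligonucleotide against tandem GAA repeats (anti-GAA ASO) or with a control ASO. Each ASO had 2 replicate libraries, numbered 1 and 2, and there was no untreated library, so every difference is relative to the control ASO. The comparison asks which RNAs were lower when GAA repeats were targeted.

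All 9 proteins are large ATPases of the Snf2 family, motors that use ATP to slide, space, evict or exchange nucleosomes along DNA. The CHD proteins also carry paired chromodomains, which in several members bind methylated histone tails. CHD1 and CHD2 space nucleosomes over transcribed genes, CHD3 and CHD4 are alternative motors of the NuRD histone deacetylase complex, and CHD6 to CHD9 form a further subfamily that acts at promoters and enhancers. ATRX works with the chaperone DAXX to deposit a replacement variant of histone H3 at telomeres and pericentric heterochromatin, and its loss is frequent in tumours that lengthen telomeres by recombination. Such proteins contain stretches of glutamate and lysine, and the codons GAA and AAG, when repeated, make the tandem GAA sequence that the ASO was designed against.

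The ASO and the longest perfect GAA runs of some of these genes are shown first, since they place those genes relative to the sequence targeted. The ASO was 21 nt long, with 6 methoxyethyl (MOE) nucleotides at each end and 9 deoxynucleotides in the middle (capitals in its line below), the part that lets RNase H cut the paired RNA. In the other lines capitals mark the longest perfect run of repeated GAA, read in any of its 3 phases on the RNA strand and written as DNA, with up to 30 bases shown. Transcripts and positions were from GENCODE 44 on GRCh38, and each coding run lay in the coding sequence of the longest annotated transcript of its gene.
anti-GAA ASO: ttcttcTTCTTCTTCttcttc
CHD4: cctggcAAGAAGAAGAAGAAGAAGcttgga
CHD3: caagtatAAGAAGAAGAAGAAGgagctac
CHD6: cagaagagGAAGAAGAAGAAGAcaaagggg
ATRX coding run: ggaccacaAAGAAGAAGAAGAgttgactg
CHD2: aaaaggtctcAAGAAGAAGAggagcaaaag
ATRX intron: aaaAAGAAGAAGAAGAAGAAGAAGAAaaa

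CHD4 had the longest coding run, 18 nt in exon 4 (chr12:6602041-6602058, minus strand), which in the reading frame repeats the lysine codon AAG. The CHD3 run was 15 nt in exon 13 (chr17:7898539-7898553, plus strand), also in the AAG frame. CHD6 had 14 nt in exon 37 (chr20:41404763-41404776, minus strand) and CHD8 14 nt in exon 6 (chr14:21415822-21415835, minus strand), the former in the AAG and the latter in the GAA frame. CHD1 had a run of 13 nt in exon 23 (chr5:98879612-98879624, minus strand). ATRX had a pair of runs of 13 nt, and the one printed lay in exon 31 (chrX:77523307-77523319, minus strand). CHD2 had only 10 nt in exon 36 (chr15:93012434-93012443, plus strand) and CHD9 10 nt in exon 31 (chr16:53304604-53304613, plus strand), while CHD7 had 11 nt. Thus 6 of the 9 genes had a coding run of at least 12 nt, and no mature transcript held the full 21 nt target.

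Searching the other annotated transcripts of these genes changed none of these lengths. Searching the whole gene body changed only ATRX, whose introns held a perfect run of 23 nt (chrX:77664252-77664274, minus strand), longer than the ASO itself and overlapping no annotated exon. When mismatches were allowed without gaps, the best site matched 19 of the 21 positions of the target in CHD6, 18 in CHD3, CHD4, CHD7, CHD8 and ATRX, 17 in CHD2 and CHD9, and 16 in CHD1. The order of the genes therefore depended on how likeness to the target was counted, with CHD6 ahead of CHD4 by matched positions. Counting the longest run as well, the runs of at least 9 nt numbered from 2 in CHD2, CHD7 and CHD8 to 6 in CHD4, and all but 1 in CHD6 and 1 in CHD9, both in the 3′ untranslated region, were coding.

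**Figure D1:**
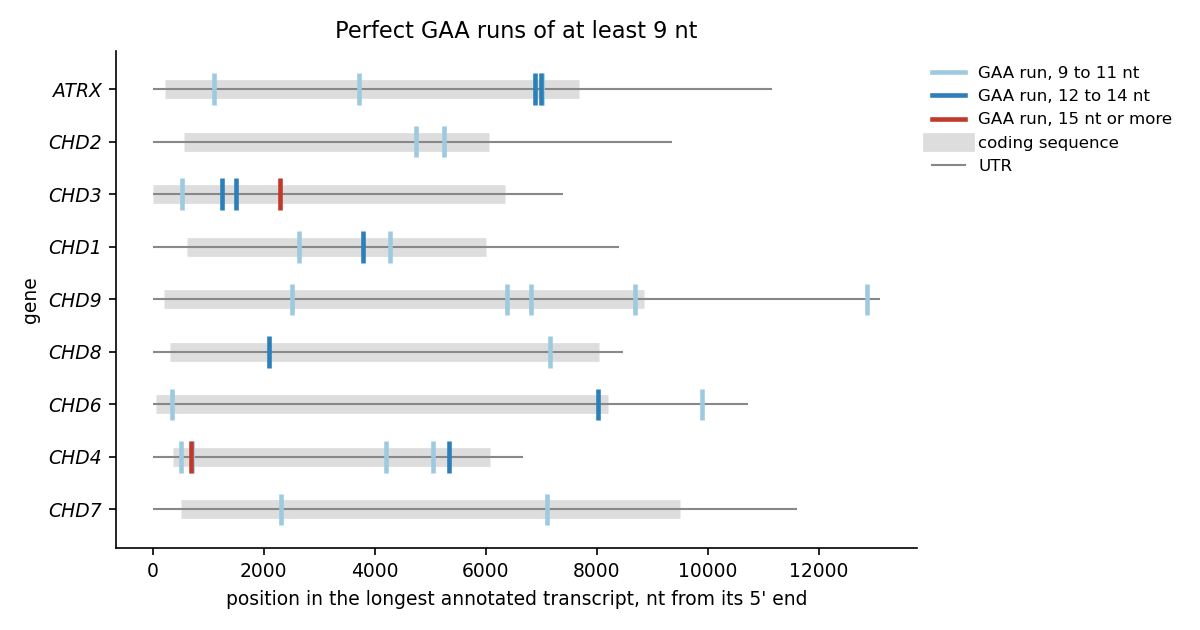
Positions of perfect GAA runs of at least 9 nt (vertical marks, coloured by length) along the longest annotated transcript of each gene, in nt from its 5′ end; thick grey bars are coding sequence, thin lines untranslated regions, and genes are ordered by log2 fold change from the lowest (ATRX) to the highest (CHD7). The 2 genes with a run of 15 nt or more, CHD3 and CHD4, stand in the third and eighth rows, and nearly all runs lie in coding sequence.

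The libraries held 10538284 and 17894953 reads on genes for replicates 1 and 2 of the anti-GAA ASO, and 15347298 and 15924742 for replicates 1 and 2 of the control ASO. Markers of a colorectal epithelial line were counted, with mean CPM (counts scaled to library size, with TMM normalization) of 635 in the anti-GAA and 735 in the control libraries for EPCAM, 41.4 and 54.6 for CDH1, 293 and 354 for KRT8, 266 and 388 for KRT18, and 22.4 and 18.5 for CDX2. Of this list of 6, the 5 tested had 4 lower means in the anti-GAA libraries, KRT18 at an unadjusted p of 0.0434 in edgeR, and their part in the results was not tested. Only VIL1, at 0 in both replicates 1 and at most 0.112 CPM in any library, was close to absent. Among markers of other lineages COL1A2 (fibroblasts) and PECAM1 (endothelium) were at 0 in every library, and PTPRC (leukocytes), ALB (hepatocytes) and GFAP (astrocytes) reached at most 0.848 CPM. COL1A1, a collagen chain of fibroblasts, was the exception, with means of 11.6 CPM (anti-GAA) and 13.3 (control). Fewer cells with a given RNA and less of that RNA per cell cannot be told apart in bulk libraries.

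Per kilobase of annotated exon, CHD4 was the most abundant of the 9 genes, with a mean of 22.5 CPM per kb over the 4 libraries (range 21.02 to 23.2). CHD2 followed with 4.98 (2.88 to 6.72) and CHD3 with 3.67 (2.71 to 4.43). These ranges overlapped each other but neither that of CHD4 above them nor that of CHD7 below them. CHD7 had a mean level of 1.76 CPM per kb (1.58 to 2.03), CHD8 of 1.53 (1.16 to 1.76) and CHD6 of 1.38 (1.27 to 1.58). The range of CHD8 overlapped each of the other two, while the lowest library of CHD7 (1.585) was just above the highest of CHD6 (1.581). CHD9, at 0.600 (0.482 to 0.756), could not be separated from CHD1, at 0.537 (0.223 to 0.838). ATRX was the least abundant, at 0.145 (0.0741 to 0.232), and only its highest library reached into the range of CHD1. Dividing by the longest transcript in place of all exons exchanged CHD8 (3.78) and CHD7 (2.86) and kept the rest of the order. The 3 least abundant genes also had the lowest GC content in their longest transcript, 36.9% for ATRX, 38.0% for CHD1 and 38.4% for CHD9, against 46.8% to 56.3% in the others.

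**Figure D2:**
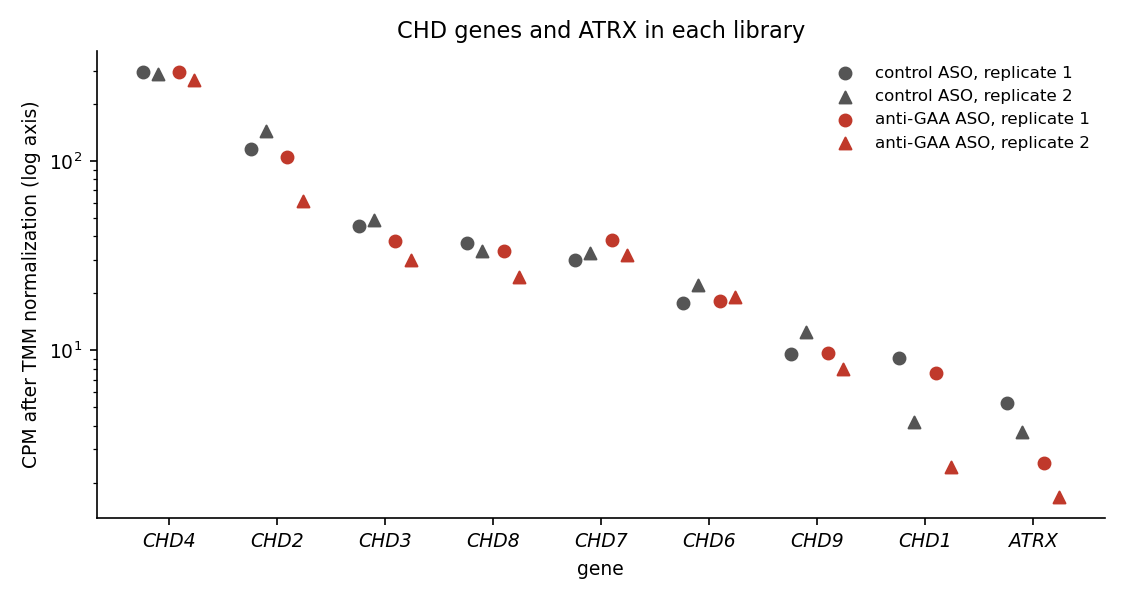
Normalized counts (CPM, log axis) of each gene in the 4 libraries; grey marks are the control ASO and red marks the anti-GAA ASO, circles replicate 1 and triangles replicate 2. Both red marks lie below both grey marks for CHD2, CHD3 and ATRX, and CHD1 separates by replicate number more than by ASO.

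Across the 9 genes, 8 had a log2 fold change (anti-GAA over control) below 0, where 48.4% of all tested genes did, and their median was −0.32 against 0.013 over all tested genes. Without anti-GAA replicate 2, 6 of the 9 were below 0 and the median was −0.13, and without anti-GAA replicate 1 these were 8 and −0.53. None of the 9 had an adjusted p under 0.05 by the quasi-likelihood test of edgeR, nor did any of the 15116 genes in either direction (0% of those tested). At an unadjusted p under 0.05, ATRX alone was lower, where 3.46% of all tested genes (523) were lower, and none of the 9 was higher, where 1.02% (154) were. DESeq2 also called none of the 9, and over all genes it called 5 lower and 0 higher. Its unadjusted p was under 0.05 for 317 lower and 100 higher genes, among them 2 of the 9, CHD2 and ATRX, both lower. Both anti-GAA libraries were below both control libraries for 3 of the 9 genes, CHD2, CHD3 and ATRX, against 16.9% of all tested genes. The methods of the study describe the sequencing as of duplicate experiments. The library titles carry the number 232 for replicates 1 and 234 for replicates 2, each shared by an anti-GAA and a control library. The labels do not say what these numbers stand for, so the p-values rest on the spread between 2 libraries of each ASO.

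With all libraries kept, ATRX had the lowest log2 fold change of the 9 in edgeR. Without anti-GAA replicate 1 that of CHD1 was lower (−1.45 against −1.41). Within replicates 2 the difference of CHD2 was lower (−1.22 against −1.08). The anti-GAA libraries (replicates 1 and 2) had 25 and 30 ATRX reads and the control libraries 81 and 63, or 2.53 and 1.69 CPM against 5.28 and 3.72 CPM. Both anti-GAA libraries were below both control libraries. The means were 2.11 ± 0.594 CPM (SD, n = 2) and 4.50 ± 1.11 CPM (SD, n = 2). The log2 fold change was −1.11 (SE 0.41, 95% interval −2.08 to −0.15), a ratio of 0.462. In edgeR's test the unadjusted p was 0.0292 and the adjusted p 0.996. The unadjusted p in edgeR was 0.167 without anti-GAA replicate 2 (log2 fold change −0.83) and 0.149 without control replicate 1 (−0.86). By replicate number the ratio of anti-GAA to control was 0.478 for replicates 1 and 0.454 for replicates 2, so both numbers gave nearly the same value. Their 95% exact intervals, which cover counting error only, ran from 0.293 to 0.757 and from 0.284 to 0.712. Of all tested genes 368 (2.43%) had a lower log2 fold change than ATRX.

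CHD2 was lower mainly in one library. It had 105 and 61.6 CPM in the anti-GAA libraries against 116 and 144 CPM in the control libraries (replicates 1 and 2 in each). All control values lay above all anti-GAA values, but anti-GAA replicate 1 was close to control replicate 1. The ratio was 0.903 for replicates 1 (0.836 to 0.976, counting error only) and 0.428 for replicates 2 (0.398 to 0.460). With a log2 fold change of −0.65 (SE 0.29, 95% interval −1.33 to 0.04), p was 0.0612 and adjusted p 0.996 in edgeR's test. The log2 fold change was −0.31 without anti-GAA replicate 2 and −1.08 without anti-GAA replicate 1. CHD2 is preceded on the same strand by CHASERR, a long noncoding RNA known to repress CHD2, with which it shares 121 exon bases and which had 6000 reads over the 4 libraries to the 6350 of CHD2. CHASERR, named here after its values were seen, had 82.0 and 108 CPM in the anti-GAA libraries and 91.5 and 110 CPM in the control libraries, a log2 fold change of −0.087 (SE 0.22). Its difference in replicates 2 was −0.034, where that of CHD2 was −1.22.

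The NuRD motors CHD3 and CHD4 carry the 2 longest coding runs and gave different values. CHD3 had 37.8 and 29.9 CPM in the anti-GAA libraries and 45.1 and 48.8 CPM in the control libraries, again without overlap between the ASOs. Its log2 fold change was −0.47 (SE 0.22, 95% interval −0.99 to 0.04), and its ratio by number was 0.839 and 0.612. Without anti-GAA replicate 2 the log2 fold change was −0.31. In edgeR's test the unadjusted p was 0.0660 and the adjusted p 0.996. CHD4 had 293 and 267 CPM in the anti-GAA libraries and 295 and 288 CPM in the control libraries. Anti-GAA replicate 1 lay between the control libraries, and the log2 fold change was −0.056 (SE 0.18, 95% interval −0.50 to 0.38). It turned to 0.0091 without anti-GAA replicate 2, and was −0.12 without anti-GAA replicate 1, −0.15 when scaled to total counts and −0.025 with a correction for transcript length and GC content. CHD4 was the best counted of the 9, with 2902 to 4882 reads in each library, and its ratios of 0.994 for replicates 1 (0.949 to 1.04) and 0.928 for replicates 2 (0.892 to 0.966) had narrow counting intervals. Of its exon bases 10.2% were shared with a gene on the opposite strand (ENSG00000247853), which had 20 reads in all. The difference between CHD3 and CHD4 in response was not tested.

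CHD1, which binds the methylated tail of histone H3 at active promoters, differed more between replicate numbers than between the ASOs. It had 7.58 and 2.42 CPM in the anti-GAA libraries and 9.06 and 4.19 CPM in the control libraries. Replicates 1 were thus higher than replicates 2 by 1.09 on the log2 scale with the control ASO and by 1.596 with the anti-GAA ASO, and the groups overlapped. Its log2 fold change of −0.44 had the widest interval of the 9 (SE 0.60, −1.87 to 0.99). Leaving out 1 library turned its direction, to 0.21 without control replicate 1 and 0.20 without anti-GAA replicate 2, and it was −1.45 without anti-GAA replicate 1. The ratios by number were 0.836 (0.623 to 1.11, counting error only) and 0.577 (0.386 to 0.855). Of the other genes low in level and GC content, ATRX was higher in replicates 1 by 0.49 (control) and 0.55 (anti-GAA), while CHD9 differed in opposite directions, by −0.39 and 0.28, as did CHD2, by −0.31 and 0.76. The median difference between replicates over the 2428 tested genes with under 40% GC was 0.061 (control) and −0.077 (anti-GAA).

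In the subfamily of CHD6 to CHD9 the libraries of the ASOs overlapped for all 4 genes. CHD8, a repressor of Wnt target genes, had 33.5 and 24.4 CPM in the anti-GAA libraries and 36.8 and 33.4 CPM in the control libraries, a log2 fold change of −0.28 (SE 0.23). CHD9 had 9.70 and 7.98 CPM against 9.52 and 12.5 CPM, a log2 fold change of −0.32 (SE 0.29). In both genes the difference came mostly from replicates 2, with ratios of 0.731 (0.643 to 0.830) for CHD8 and 0.638 (0.512 to 0.793) for CHD9, counting error only. Without anti-GAA replicate 2 the log2 fold change of CHD8 was −0.066, and without anti-GAA replicate 1 it was −0.53. That of CHD9 was −0.10 without control replicate 2, −0.18 without anti-GAA replicate 2 and −0.52 without control replicate 1. With the correction for transcript length and GC content the CHD9 value was −0.19. CHD6, with the best match to the ASO target by positions, had 18.3 and 19.0 CPM against 17.8 and 22.2 CPM, a log2 fold change of −0.10 (SE 0.23). That value turned to 0.074 without control replicate 2, and was −0.27 without control replicate 1, −0.20 when scaled to total counts and −0.048 with the correction for length and GC content. CHD7, an enhancer-binding remodeler mutated in CHARGE syndrome, was the only one with a positive log2 fold change, 0.17 (SE 0.21), from 38.4 and 31.9 CPM against 29.9 and 32.6 CPM. Its ratio was 1.28 in replicates 1 and 0.979 in replicates 2. The log2 fold change of CHD7 was 0.030 without anti-GAA replicate 1, 0.090 without control replicate 1, 0.30 without anti-GAA replicate 2 and 0.067 when scaled to total counts. Every unadjusted p of these 4 genes was at least 0.270 in edgeR's test, with adjusted p of 0.996. Exon bases shared with other annotated genes were 301 in CHD7 and 468 in CHD8, and 0 in CHD6 and CHD9.

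Compared by replicate number, 6 of the 9 genes were lower in the anti-GAA library of both numbers, against 30% of all tested genes (4540). None was higher in both, where 4802 of the 15116 tested genes were. CHD6, CHD7 and CHD9 differed in direction, as did 5773 of all tested genes. The median difference was −0.13 on the log2 scale in replicates 1 and −0.64 in replicates 2, where all tested genes had medians of −0.0041 and 0.020. All 9 genes had a lower difference in replicates 2 than in replicates 1, closest together for ATRX (−1.03 and −1.08) and furthest apart for CHD2 (−0.15 and −1.22). The share of all tested genes with a lower difference in replicates 2 was not counted. With the replicate number as a further term in edgeR, none of the 9 passed an adjusted p of 0.05, where 1.37% of all tested genes (207) were called lower. ATRX (adjusted p = 0.0831), CHD2 (0.102) and CHD3 (0.148) were lower at an unadjusted p under 0.05 in that fit, where 9.7% of all tested genes were.

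**Figure D3:**
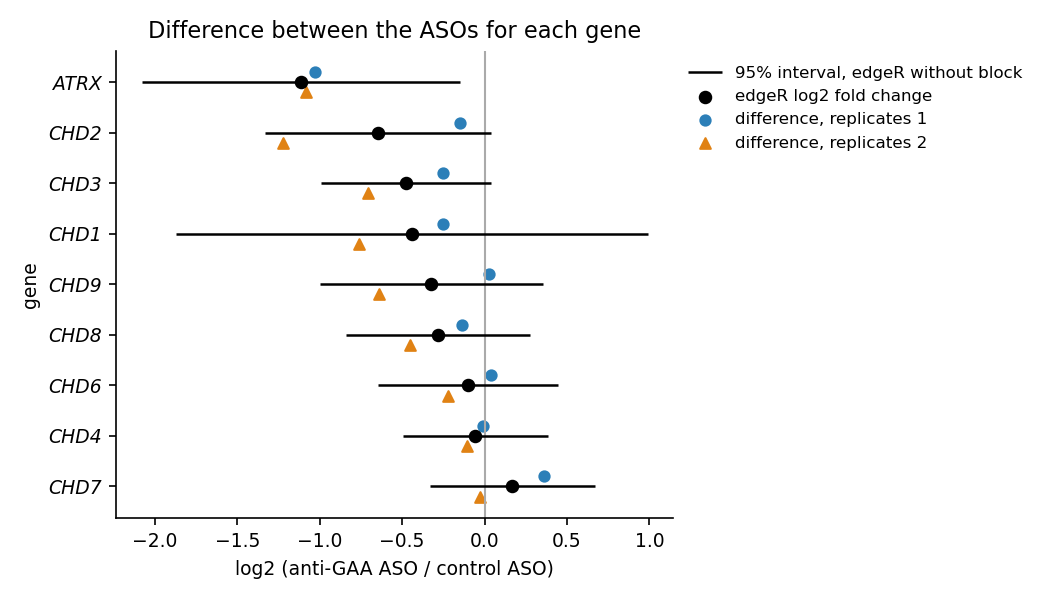
log2 fold change of the anti-GAA over the control ASO for each gene (black points with the 95% interval of edgeR's test), beside the log2 difference within replicates 1 (blue circles) and within replicates 2 (orange triangles). ATRX alone has an interval that ends below 0, at −0.15, and its points for the 2 replicate numbers lie close together, unlike those of CHD2.

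Set beside all tested genes of the same run length, the 9 genes did not follow one order. Over all tested genes the median log2 fold change was 0.030 where the longest run in the longest transcript was under 9 nt (n = 11786), −0.037 at 9 to 11 nt (n = 2591), −0.11 at 12 to 14 nt (n = 280), −0.44 at 15 to 17 nt (n = 70), −0.40 at 18 to 20 nt (n = 15) and −0.32 at 21 nt or more (n = 9). ATRX, with 13 nt, was near the lower end of its class, in which 6 of 280 genes had a lower log2 fold change. CHD1 (58 lower), CHD8 (85) and CHD6 (146) were spread through the same class. CHD3 lay near the middle of its class, with 27 of 70 genes below it. CHD4 was near the upper end of its own, with 12 of 15 below it. CHD2, with 213 of 2591 genes below it, was among the lower genes of a class whose median was close to 0, while CHD9 (574) and CHD7 (2033) stood further up.

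The ATRX intron placed that gene among 121 tested genes with a run of at least 21 nt anywhere in the gene body. In this group 97 genes (80.2%) had log2 fold changes below 0, against 48.4% of all tested genes, and the median was −0.31. At an unadjusted p under 0.05 in edgeR without the replicate number as a term, 21 were lower and 1 higher. Over all tested genes 3.46% were lower and 1.02% higher. The transcripts of the 9 genes were also long, from 6673 nt (CHD4) to 13110 nt (CHD9). Among the 2758 tested genes with transcripts over 6000 nt, 57.7% had a log2 fold change below 0, with a median of −0.058. The median was −0.26 in the 152 of them with a run of at least 12 nt and −0.048 in the 2606 without one. Of the 152, 118 (77.6%) were below 0, 88 were lower in both replicate numbers, and 60 had both anti-GAA libraries below both control libraries. Of the 2606, these were 1472 (56.5%), 981 and 566. With the replicate number as a term in edgeR, 49 and 359 were lower at an unadjusted p under 0.05. The part of transcript length, run length and GC content in the values of these 9 genes was not tested, other than by the correction for length and GC content given among the alternatives.

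**Figure D4:**
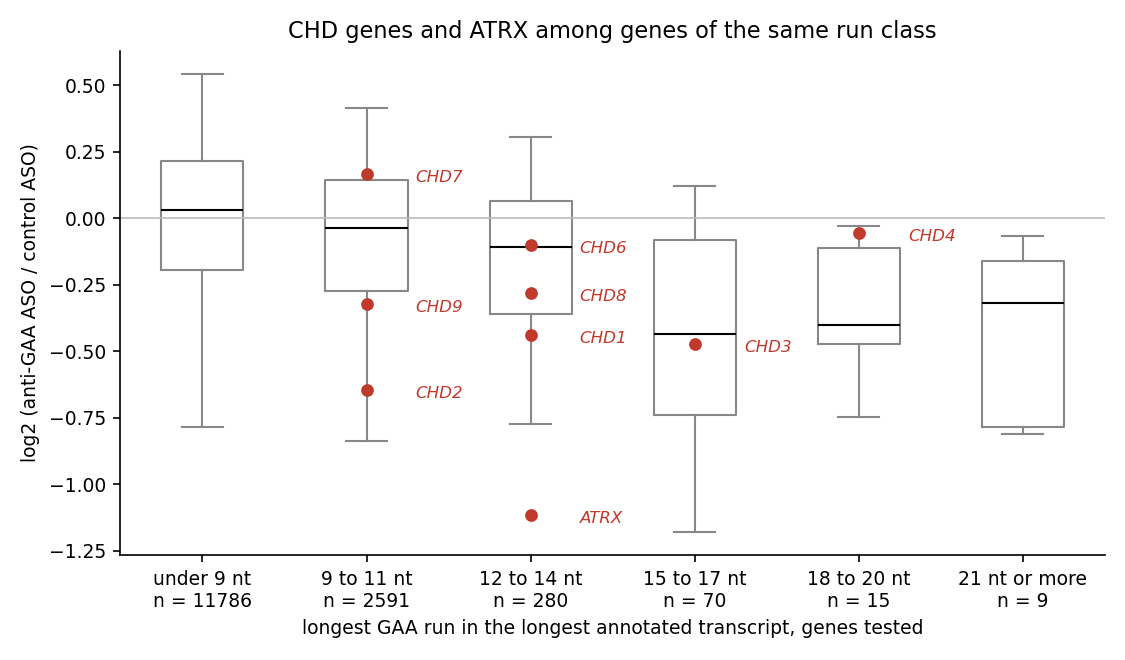
log2 fold change of all tested genes with a transcript sequence by the length of the longest GAA run in the longest transcript; boxes span the quartiles with the median as a black line, whiskers run from the 5th to the 95th percentile, and red points are the 9 genes. ATRX lies below the whisker of its class, CHD3 close to the median of its class (−0.44) and CHD4 above the box of its class.

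Relatives and partners of the 9 proteins were taken from lists chosen with earlier results of these data known. Among the 23 other Snf2-family ATPases, 16 had a log2 fold change below 0 (median −0.18), against 48.4% of all tested genes. At an unadjusted p under 0.05, where 3.46% of all tested genes were lower and 1.02% higher, 1 of them was lower and none higher. That gene was ERCC6L2, a DNA repair ATPase, with 5.05 and 4.50 CPM in the anti-GAA libraries and 9.19 and 10.4 CPM in the control libraries, so the groups lay well apart. Its log2 fold change was −1.04 (SE 0.29), with adjusted p = 0.922 in edgeR, and adjusted p = 0.0341 once the replicate number was a term, the only list gene called in either fit. It shares 506 exon bases with ERCC6L2-AS1 on the opposite strand, which had 367 reads over the 4 libraries to its 448, and without a known strand setting these cannot be told apart. Its longest coding or untranslated run was 10 nt, shorter than that of ATRX. SMARCAD1, which maintains heterochromatin through replication, followed with −0.66 (SE 0.32). The highest were SHPRH, a ubiquitin ligase, with 1.00 (SE 0.57) and 24 reads or fewer in each library, and CHD1L, a remodeler activated by poly(ADP-ribose), with 0.30 (SE 0.21). CHD5, the remaining CHD gene, had a log2 fold change of −0.27 (SE 0.29), from means of 11.5 ± 2.79 CPM (anti-GAA; SD, n = 2) and 13.7 ± 2.44 CPM (control; SD, n = 2), with overlapping groups and a run of 14 nt.

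Subunits of NuRD and ChAHP, and ATRX partners and histone chaperones, were centred near 0. Fewer of them than of the 9 genes held GAA runs of at least 12 nt. Such runs were in 0 of 15 NuRD and ChAHP subunits. They were in 2 of 12 tested ATRX partners and histone chaperones, and in 6 of the 9 genes. The part of run length in this contrast was not tested. Of 15 NuRD and ChAHP subunits, the partners of CHD3 and CHD4, 6 had a log2 fold change below 0 (median 0.083). Over all tested genes 48.4% did. At an unadjusted p under 0.05, where 3.46% of all tested genes were lower and 1.02% higher, none was lower and 1 was higher. This was GATAD2B, which links CHD4 to the deacetylase core, with 32.4 and 33.6 CPM in the anti-GAA libraries against 21.1 ± 4.11 CPM (SD, n = 2) in the control libraries and a log2 fold change of 0.65 (SE 0.23), while the deacetylase HDAC1 had 0.37 (SE 0.21), the histone-tail and DNA-binding subunit MTA2 −0.28 (SE 0.24) and the methyl-CpG-binding MBD2 −0.25 (SE 0.19). Of 12 tested ATRX partners and histone chaperones of 13 listed, 2 were below 0 (median 0.10). H3-3A, the one not tested, had 3 to 10 reads in each library. None passed an unadjusted p of 0.05 in either direction in edgeR without the replicate number as a term. With that term in edgeR, UBN1 was lower (unadjusted p = 0.00324, adjusted p = 0.0923) and TRIM28 higher (0.0495 and 0.301). Over all tested genes 1466 were lower and 1037 higher at that unadjusted threshold in the same fit. DAXX, named as the direct partner of ATRX after its value was seen, had 0.18 (SE 0.23). UBN1, of the HIRA chaperone complex, was the lowest of that list at −0.51 (SE 0.23), from 53.9 and 40.1 CPM against 68.9 and 65.2 CPM, with the nuclear body protein PML next at −0.11 (SE 0.22). The highest were the corepressor TRIM28 at 0.30 (SE 0.27) and UBN2 at 0.23 (SE 0.34).

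The 24 SWI/SNF subunits had 7 log2 fold changes below 0 and a median of 0.16, and at an unadjusted p under 0.05 there were 1 lower and 0 higher. Their lowest were DPF3 (−0.79, SE 0.52) and the bromodomain protein BRD9 (−0.62, SE 0.25), the one lower, and their highest SMARCC2 (0.56, SE 0.37) and BRD7 (0.35, SE 0.19). Of 24 tested subunits of INO80, SRCAP and EP400 complexes of 25 listed, 11 were below 0 (median 0.053), none at an unadjusted p under 0.05, with TFPT (−0.57, SE 0.39) and INO80D (−0.31, SE 0.26) lowest and VPS72 (0.29, SE 0.27) and TRRAP (0.29, SE 0.22) highest. Partners of the ISWI motors had a median of −0.15 over 9 genes, 5 below 0, and at an unadjusted p under 0.05 there were 2 lower and 0 higher. These were BAZ2B, a bromodomain partner, at 2.40 ± 1.32 CPM against 5.24 ± 1.07 CPM (SD, n = 2 each; log2 fold change −1.17, SE 0.47), and BPTF, the largest subunit of NURF, at 36.0 ± 1.91 CPM against 54.8 ± 12.7 CPM (log2 fold change −0.61, SE 0.24). CHRAC1 (0.39, SE 0.23) and BAZ1B (0.23, SE 0.23) were the highest. The BAZ2B transcript held a run of 14 nt and matched the ASO target at 20 of 21 positions, and BPTF held 12 nt. The other subunits and partners with at least 12 nt were POLE3 (log2 fold change −0.15), ARID1A (−0.48), UBN1 (−0.51), HIRA (0.0029) and NFRKB (−0.024). DPF3, the lowest of the SWI/SNF subunits, had a run of 8 nt. The part of these runs in the values was not tested. Without the replicate number as a term, edgeR called no gene of these lists.

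In pattern over the 4 libraries, measured as the Euclidean distance between log2 CPM centred on the mean of each gene, the nearest of the 107 tested list genes to ATRX was BAZ2B (distance 0.428), which like ATRX was low in anti-GAA replicate 2 and high in control replicate 1. CHD2 was nearest to RSF1 (0.299), CHD3 to UBN1 (0.158), and CHD9 to CHD5 (0.160). CHD1 had no near neighbour, with MBTD1 closest at 0.751. The others were nearest to SS18 (CHD4, 0.104), PML (CHD6, 0.0262), ARID1B (CHD7, 0.116) and INO80B (CHD8, 0.122). With 4 libraries these distances are a description only, and a gene that hardly varies is near to any other such gene.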

How the data were processed

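The authors used Trimmomatic 0.38 for trimming, STAR 2.6.1 for alignment to hg19 and featureCounts 1.6.3 for counting per Ensembl gene, leaving out reads on GL contigs. The values they deposited are raw counts, without normalization. The Ensembl release, strand setting and handling of multi-gene reads are not given in the sources used here, so reads shared between overlapping genes cannot be assigned. The labels name a total RNA kit and the study's methods a stranded mRNA kit, and the 2 also differ in the duration of transfection.

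Counts from the 4 libraries (21368 to 23443 genes with reads) were analysed in R 4.3.3. Genes kept by edgeR 4.0.16's filterByExpr were normalized by TMM (factors 0.941 to 1.07) and tested by the quasi-likelihood F-test with the ASO as the only term. Benjamini-Hochberg adjustment covered all genes tested, with a threshold of 0.05. Differences by replicate number used log2 CPM (prior count 2). The study's methods name DESeq2, used here (1.42.0) as an alternative. Other alternatives were scaling by DESeq2's size factors or by library totals, filtering on a mean of 1 CPM or not at all, the replicate block, each library left out, and offsets (mgcv 1.9.3) for transcript length and GC content.

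GENCODE 44 (GRCh38) gave symbols, transcripts and positions for 52181 of the counted genes by Ensembl identifier, and no position was converted from hg19. The ASO sequence is from the study's supplementary table. No sequence is shown for CHD1, CHD7, CHD8 or CHD9.

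The 9 genes, the lists and the tests were chosen with earlier results of these data known. Genes named from a list are CHD5, the 2 lowest and 2 highest log2 fold changes of each list, any list gene called in either edgeR fit, and the nearest list gene in pattern. CHASERR and DAXX were named after their values were seen.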

Additional observations from a re-analysis of the deposited data

How the results depend on the processing

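None of the 9 genes was called under any of the 12 alternatives, and the 9 kept the direction of their log2 fold change in each of the 8 that kept all libraries. The number of all genes called lower and higher, 0 and 0 in edgeR without a block, was 5 lower and 0 higher in DESeq2, 111 and 5 with no filter (28017 genes tested), 207 and 51 with the replicate block, and 327 and 108 with the length and GC correction together with the replicate block. Of the 9 genes, 1 was lower at an unadjusted p under 0.05 in edgeR without a block, where 523 of all tested genes were lower. The same numbers were 2 and 317 in DESeq2, 2 and 1014 with no filter, 3 and 692 with total counts, 3 and 1466 with the block, 3 and 1482 (of 14751 tested) with the block and the length and GC correction, 3 and 526 without anti-GAA replicate 1, and 0 and 512 without anti-GAA replicate 2. Same-numbered libraries deviated together across genes (r = 0.564 over genes, which are not independent), the common dispersion was 0.0549 without and 0.0148 with the block, and the labels do not say what the shared number stands for. Leaving out each library in turn gave log2 fold changes from −1.45 to 0.21 for CHD1, above 0 without control replicate 1 or anti-GAA replicate 2, from −0.12 to 0.0091 for CHD4, above 0 without anti-GAA replicate 2, and from −0.27 to 0.074 for CHD6, above 0 without control replicate 2, and the cause was not tested. ATRX ranged from −1.41 to −0.83, CHD2 from −1.08 to −0.31, CHD3 from −0.65 to −0.31, CHD7 from 0.030 to 0.30, CHD8 from −0.53 to −0.066 and CHD9 from −0.52 to −0.10 over the same fits, in which the library left alone in its group was assumed to vary like the other group. The number of the 9 below 0 was then 6 to 8 and their median −0.53 to −0.13, the latter without anti-GAA replicate 2. With the length and GC correction the median was −0.24, ATRX had −0.97, and CHD9 (−0.19), CHD6 (−0.048) and CHD4 (−0.025) moved toward 0 by over 1.5 times. Scaling to total counts moved the median of all genes to −0.081 and that of the 9 to −0.42, with CHD4 at −0.15, CHD6 at −0.20 and CHD7 at 0.067. The smallest adjusted p of any of the 9 was 0.0637, for CHD2 with the length and GC correction and the replicate block. Counts of 25 to 81 reads limit what can be said of ATRX, and 43 to 139 of CHD1.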
